A study of Mus musculus with 9 samples.

Results

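The mouse genome holds a small set of protein-coding genes whose transcribed length exceeds 800 kb, and 85 of them were measured here in nuclei of cortical neurons. The members are the genes of at least 800 kb in the annotation of the count files with at least 1000 counts over the 9 libraries. Genes whose symbols mark them as neurexins, neuroligins, glutamate or GABA receptor genes, potassium or calcium channel genes, axon guidance genes or Dlg and Dlgap scaffolds were left out by the same rule. Of 55401 annotated genes, 100 reached this length. By symbol 12 were left out, and by count 3, which had 0 counts, so that 85 (0.153% of all genes) remained. The choice used length, symbol and total count, not a difference between groups, and was made with earlier results of these data known.

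The 9 libraries came from NeuN-positive nuclei, the nuclear antigen of neurons, sorted from cortex of mice aged 7 to 9 months. There were 3 libraries in each of 3 groups: wild-type mice with no treatment, P301S Tau transgenic mice given a scrambled peptide, and P301S Tau transgenic mice given the Cdk5i peptide. The peptides were injected intraperitoneally at 20 mg/kg every other day. P301S is a mutation of the microtubule-associated protein tau found in inherited frontotemporal dementia, and Cdk5 is a neuronal kinase that phosphorylates tau. The wild-type mice were not injected, so genotype and injection cannot be told apart in either comparison with wild type. The promoter that drives the transgene is not given in the sources used here. No label says that the 3 libraries of a group came from separate mice, so the p-values measure the spread between libraries, which may be partly technical.

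Very long genes consist almost wholly of introns. RNA polymerase II needs many hours to cross one, introns are removed while transcription goes on, and the nucleus therefore holds much unspliced RNA of such a gene. In neurons many of these genes encode adhesion molecules, synaptic organisers and regulators of RNA, and several are hot spots of chromosome breakage under replication stress. The count files assign read pairs to whole genes, introns included, so a level here is mostly that of nuclear precursor RNA.

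The members measured 805.0 to 4434.9 kb, with a median of 1098.1 kb. A length of 1 Mb was reached by 54 of the 85 and of 2 Mb by 7, and 5 lay on the X chromosome (Dmd, Il1rapl1, Il1rapl2, Frmpd4 and Tenm1). Exons covered a median of 0.836% of the length and coding sequence 0.213%, and the longest stretch between exons had a median of 271 kb. Just inside the 800 kb threshold stood Adgrl3 (804996 bases) and Dgkb (816514 bases), and just outside it Lrrtm4 (791267 bases) and Ptprn2 (791130 bases). The Length column is taken from the deposited files, and 83 of the 85 had a gene in RefSeq on the same build. There 80 were again 800 kb or longer, while Zfhx3 was 682 kb, Dgkb 754 kb and Fgfr2 104 kb.

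The 5 longest members were Gm20388 (4434.9 kb), Fgfr2 (2960.9 kb), Ptprd (2270.7 kb), Dmd (2257.3 kb) and Cntnap2 (2244.9 kb). The model of Fgfr2, a receptor for fibroblast growth factors, held a gap of 2815 kb between exons, and 27.7% of it lay under 36 other genes of the same strand. In RefSeq this gene is 104 kb, so its low level per kb here (0.0228 CPM per kb) rests on the longer model. Gm20388 lay over 90 other genes of its strand (34.2% of its length), and Gm37240 over 11 (25.3%). Cdh12 (46.6%) and Adamtsl1 (13.7%) were the other members with over 10% of their length under same-strand genes. Read pairs over several genes of 1 strand were not counted, so the overlap alone understates the levels per kb of these 5 genes to that extent. Without these 5, Ptprd, which encodes a receptor-type tyrosine phosphatase that organises presynaptic terminals, was the longest member, followed by the dystrophin gene Dmd.

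Starts of transcription are the one part of these genes where short sequence can be shown. RefSeq promoter windows on GRCm38.p6, each of 300 bases from 250 before to 50 after a start, matched 67 of the 85 members with 104 windows. A window within 1 kb of the gene's outer start was found for 48 members, and 33 members had a window 100 kb or more inside the gene, among them Celf2, Dmd, Cntnap2, Tenm1 and Pcdh15. Counts over the whole gene do not separate starts. The windows of the members had a median GC content of 57% and 12 CpG dinucleotides, beside 52.7% and 7 over all 32851 windows. A GC box (GGGCGG on either strand) was in 42.3% of the members' windows and 35.7% of all windows, and a TATA box (TATAAA on either strand) in 12.5% and 13.6%. Shown are the outer starts of the 3 members that had such a window among the 7 that DESeq2 called lower in the scrambled-peptide group (below). CpG dinucleotides are in capitals. Cntn5 is at chr9:10904726-10905025 (minus strand), Hdac9 at chr12:34917046-34917345 (minus strand) and Prkg1 at chr19:31764984-31765283 (minus strand).
Cntn5: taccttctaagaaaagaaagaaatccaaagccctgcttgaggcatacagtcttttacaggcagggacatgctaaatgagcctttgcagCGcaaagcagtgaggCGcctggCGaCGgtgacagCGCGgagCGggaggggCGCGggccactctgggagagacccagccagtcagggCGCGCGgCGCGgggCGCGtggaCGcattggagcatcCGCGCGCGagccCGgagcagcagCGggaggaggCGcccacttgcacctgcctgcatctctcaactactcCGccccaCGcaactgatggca
Hdac9: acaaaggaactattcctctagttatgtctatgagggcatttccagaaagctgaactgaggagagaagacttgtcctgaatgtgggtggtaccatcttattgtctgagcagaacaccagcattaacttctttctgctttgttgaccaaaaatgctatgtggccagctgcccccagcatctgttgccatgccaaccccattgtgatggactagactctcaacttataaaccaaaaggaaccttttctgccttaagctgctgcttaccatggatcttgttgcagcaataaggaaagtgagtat
Prkg1: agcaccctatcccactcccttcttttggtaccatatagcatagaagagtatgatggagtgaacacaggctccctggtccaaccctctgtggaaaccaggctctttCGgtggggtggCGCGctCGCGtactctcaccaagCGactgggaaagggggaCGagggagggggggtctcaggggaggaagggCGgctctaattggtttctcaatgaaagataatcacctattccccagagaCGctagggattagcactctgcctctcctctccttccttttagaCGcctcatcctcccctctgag
The window of Cntn5 held 26 CpG dinucleotides and a GC box, and that of Prkg1 10 and a GC box. The window of Hdac9 held 0 CpG dinucleotides, no GC box and a TATA box. The 3 members thus differed in these features of their outer starts.

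Libraries held 21584712 to 26715938 counts. The members took 13.8% of all counts, from 12.9% to 14.7% in single libraries, while they made up 8.02% of the annotated gene length. Counts of a member ran from 107 to 214802 in a single library, and 85 of 85 passed the low-count filter. The share of ribosomal RNA genes was 0.771% to 3.06%, highest in wild type replicate 3. The neuronal label was checked on summed markers: excitatory neuron markers were at 1333 to 1712 counts per 1000000 counts (CPM) and inhibitory neuron markers at 1165 to 1553 CPM, while microglial markers were at 56.2 to 161 CPM and endothelial and pericyte markers at 4.55 to 6.71 CPM. Astrocyte markers stood at 604 to 890 CPM and markers of striatal projection neurons at 2417 to 4652 CPM, and some genes of both lists are also expressed by cortical neurons. Oligodendrocyte precursor markers were at 384 to 564 CPM and oligodendrocyte markers at 154 to 212 CPM. In no list was a marker at 0 in the 9 libraries.

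Levels per length spanned 948-fold among the members. Scaled by library size and edgeR's TMM factors and divided by gene length, the level had a median of 0.842 CPM per kb, with quartiles of 0.407 and 1.95. The median over all 16046 genes tested was 0.548 CPM per kb, that of genes of 400 to 800 kb 0.811, and that of the 12 genes left out by symbol 2.32. A level of 1 CPM per kb or more was found for 35 members, and a level under 0.1 for 11, among them Fgfr2 by its length in the count files. In CPM not divided by length, 35 members were among the 100 highest genes, and 10 members held 40.7% of the members' counts.

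The highest levels per length belonged to regulators of RNA, to ligands and to adhesion molecules. Celf2, an RNA-binding protein that controls alternative splicing, had 6.63 ± 0.701 CPM per kb (SD, n = 9 libraries). Nrg3, a neuregulin ligand of the receptor ErbB4, followed with 5.18 ± 0.465, and the neuronal splicing factor Rbfox1 with 5.18 ± 0.356 CPM per kb. These were followed by the protocadherin Pcdh9 (4.87), the CUB and sushi domain protein Csmd1 (3.99), the IgLON adhesion molecule Opcml (3.72), the active zone scaffold Erc2 (3.35) and the potassium channel auxiliary subunit Dpp10 (3.35 CPM per kb). Among these 8 the neighbouring levels of Nrg3, Rbfox1 and Pcdh9, and of Csmd1, Opcml, Erc2 and Dpp10, lay within their SDs. The lowest levels were those of Sugct (0.00699), a mitochondrial enzyme of glutarate metabolism, Spag16 (0.00939), a protein of ciliary axonemes, the gene model Gm37240 (0.0112) and Agbl1 (0.0118 CPM per kb), a deglutamylase.

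**Figure D1:**
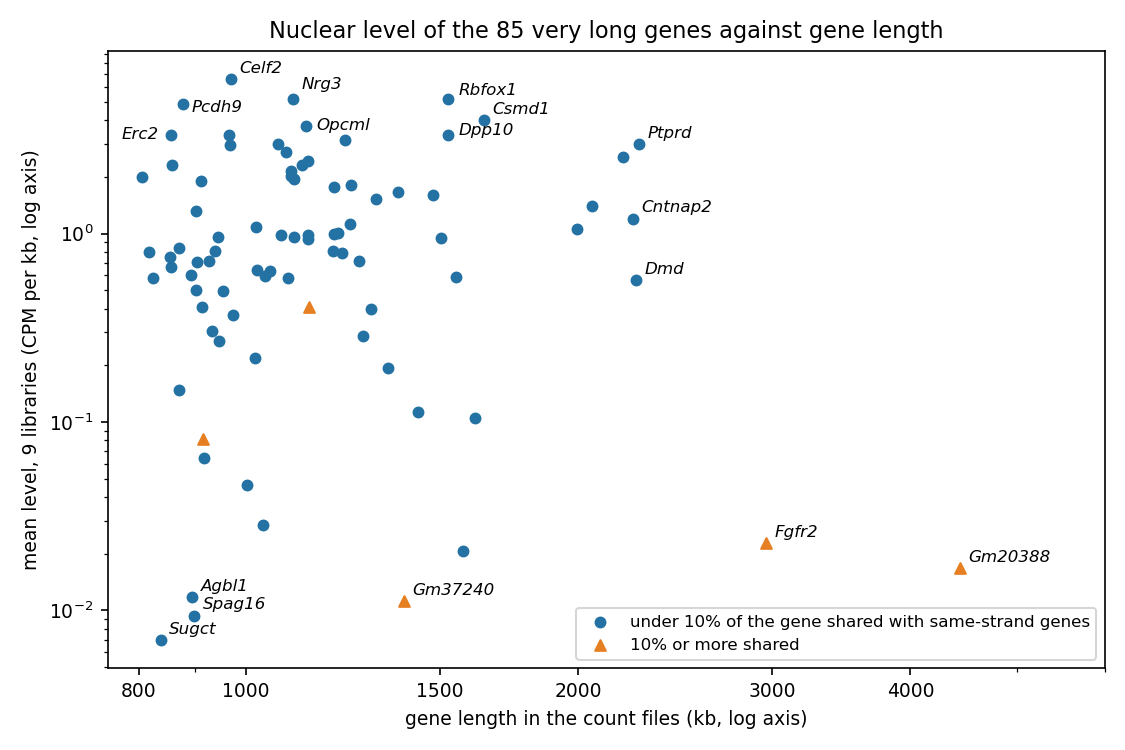
Mean level of each member (CPM per kb, log axis) against its length in the count files (kb, log axis). Each point is 1 of the 85 genes and triangles mark the 5 genes with over 10% of their length under same-strand genes. Levels run from 0.00699 (Sugct) to 6.63 (Celf2) with little order by length. Gm20388 and Fgfr2 stand low at the right by their lengths in the count files, and Fgfr2 is far shorter in RefSeq.

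Length itself was a weak guide to the level. Across the 85 genes Spearman's rho between length and CPM per kb was 0.104, and 0.197 without the 5 overlapped genes. This is a description across genes that share libraries and a unit divided by length. Of 12 pairs within families, some stood close together, such as Cntn4 and Cntn5 (ratio 0.966), and the 4 with the widest ratios are given here, chosen for that. The alpha-catenin Ctnna2, which links cadherins to actin in neurons, had 2.02 CPM per kb, 97.6 times the 0.0207 CPM per kb of Ctnna3. The teneurin Tenm2, an adhesion protein that binds latrophilins, stood at 3.12 CPM per kb against 0.499 for Tenm1, a ratio of 6.26. For the interleukin receptor-like synaptic organisers, Il1rapl1 had 1.66 and Il1rapl2 0.285 CPM per kb (5.81 times). For the glypicans, heparan sulfate proteoglycans of the cell surface, Gpc6 had 0.636 and Gpc5 0.113 CPM per kb (5.65 times).

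In P301S mice given the scrambled peptide, most very long genes had values slightly below untreated wild type, and none differed past the adjusted threshold in the main test. By edgeR's quasi-likelihood test with Benjamini-Hochberg adjustment over all 16046 genes, 0 of 85 members passed an adjusted p of 0.05, where 13 of all genes did (0.0810%), and the lowest adjusted p among members was 0.182 (Prkg1). An unadjusted p under 0.05 was found for 24 members (28.2%) beside 10.1% of all genes, and each of the 24 was lower. The log2 fold change was below 0 in 75 of 85 members (88.2%) beside 48.3% of all genes. Its median was -0.14 over the members and 0.0084 over all genes. In 29 members (34.1%) the 3 scrambled-peptide libraries lay wholly below the 3 wild-type libraries, beside 8.03% of all genes, and in 0 members wholly above. DESeq2, run as an alternative, called 7 members lower (Cntnap5a, Tenm1, Pcdh15, Cdh13, Cntn5, Hdac9 and Prkg1), beside 0.529% of the genes it tested. Fewer nuclei of a type that expresses a gene and less RNA per nucleus cannot be told apart in these bulk libraries.

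The difference was small for the typical member (median -0.14). Between replicates of these groups the members' median position varied by an SD of 0.0775 (log2). That is a spread of single libraries, not of a difference between group means. Leaving out wild type replicate 2 raised the number of members above 0 from 10 to 20. A scaling that removes a smooth trend of level on gene length in each library, which takes out any shift of long genes by construction, left 45 members above 0 and a median of 0.0081. The TMM factors were 0.971 to 0.991 in wild type and 0.995 to 1.06 in the scrambled-peptide group. Summed inhibitory neuron markers were lower in the scrambled-peptide group (1165 to 1285 CPM) than in wild type (1316 to 1498 CPM) without overlap, and oligodendrocyte markers were higher (186 to 212 against 158 to 165 CPM). Of the 12 single inhibitory markers, however, 8 were above 0 and their median log2 fold change was 0.05, so the sum and the single markers differed in direction. Of 14 striatal projection neuron markers 12 were above 0 and 2 below (median 0.21). Their sums overlapped, at 2441 to 3447 CPM against 2417 to 3762 CPM in wild type. Of 12 excitatory markers 8 were below 0 and 4 above (median -0.03). The part of these markers in the members' values was not tested.

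Prkg1, the cGMP-dependent protein kinase (ENSMUSG00000052920, chr19:30564489-31765033), had the lowest p. Its level was 1199, 1083 and 1003 CPM in wild type, 849, 792 and 854 CPM under scrambled peptide and 962, 1073 and 923 CPM under Cdk5i. All scrambled-peptide libraries lay below all others. The log2 fold change relative to wild type was -0.40 (SE 0.0847, edgeR adjusted p = 0.182, DESeq2 adjusted p = 0.00336). Cdh13, a cadherin held to the membrane by a lipid anchor (chr8:118283733-119324921), showed the same order. It stood at 708, 671 and 651 CPM in wild type, 570, 529 and 518 CPM under scrambled peptide and 602, 698 and 659 CPM under Cdk5i. Here too the scrambled-peptide libraries were the lowest 3 of 9, at -0.33 relative to wild type (SE 0.0747, edgeR adjusted p = 0.221).

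Pcdh15, a cadherin known from the tip links of hair cells (chr10:73099342-74649737), was low in both transgenic groups. Its values were 1097, 991 and 1069 CPM in wild type, 853, 734 and 869 CPM under scrambled peptide and 893, 893 and 791 CPM under Cdk5i. Each of the 6 transgenic libraries lay below each wild-type library. The log2 fold change was -0.36 (SE 0.0847, edgeR adjusted p = 0.23) for scrambled peptide and -0.29 (SE 0.0846, edgeR adjusted p = 0.248) for Cdk5i relative to wild type. Hdac9, a class IIa histone deacetylase (chr12:34047580-34917095), had 790, 835 and 787 CPM in wild type, 604, 588 and 696 CPM under scrambled peptide and 787, 822 and 681 CPM under Cdk5i. Its scrambled-peptide values were below wild type at -0.35 (SE 0.0873, edgeR adjusted p = 0.244), and Cdk5i replicate 3 lay among them.

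Cntnap5a, a contactin-associated protein of the neurexin superfamily (chr1:115684756-116587323), stood at 811, 694 and 677 CPM in wild type, 613, 546 and 523 CPM under scrambled peptide and 549, 693 and 624 CPM under Cdk5i. The Cdk5i libraries spread from the scrambled-peptide range (replicate 1) to the wild-type range (replicate 2), with a log2 fold change of -0.38 (SE 0.0995, edgeR adjusted p = 0.276) for scrambled peptide relative to wild type. Cntn5, an immunoglobulin adhesion molecule of the contactin family (chr9:9660891-10904775), had 1554, 1597 and 1360 CPM in wild type, 1278, 1179 and 1225 CPM under scrambled peptide and 1449, 1445 and 1455 CPM under Cdk5i. The 3 Cdk5i libraries of Cntn5 differed by little and lay inside the wild-type range. Tenm1 (chrX:42527866-43429126) had 502, 519 and 464 CPM, then 432, 387 and 402 CPM, then 435, 442 and 468 CPM in wild type, scrambled peptide and Cdk5i, and its scrambled-peptide libraries were the lowest 3.

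**Figure D2:**
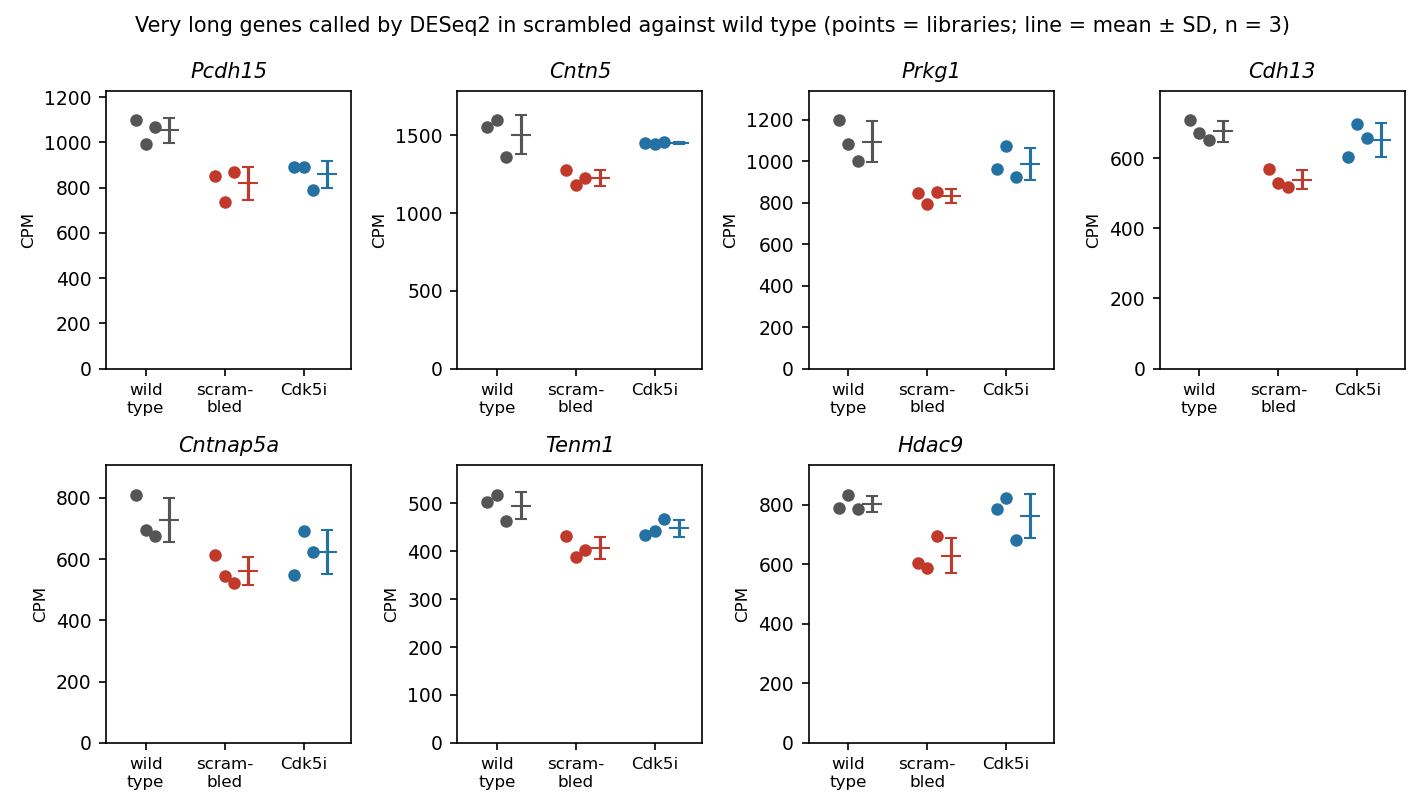
CPM of the 7 members that DESeq2 called in scrambled peptide relative to wild type; points are libraries, and the line with bars beside them is the mean ± SD (n = 3). In each panel the 3 scrambled-peptide libraries lie below the 3 wild-type libraries, with edgeR's log2 fold change from -0.28 (Tenm1) to -0.40 (Prkg1).

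The lowest log2 fold change belonged to a gene of low level and wide spread. Dpyd, the first enzyme of pyrimidine breakdown, had 196, 133 and 137 CPM in wild type and 132, 97.1 and 77.1 CPM under scrambled peptide. Its log2 fold change of -0.61 had an SE of 0.324 and an edgeR adjusted p of 0.591, and its spread within groups (SD 0.42 on the log2 scale) was the widest of the members, whose median was 0.124. Adamtsl1 (-0.37) and the transcription factor Npas3 (-0.37) completed the 6 lowest with Prkg1, Cntnap5a and Pcdh15. The 6 highest were Spag16 (0.15), Ctnna3 (0.14), the calmodulin-binding transcription activator Camta1 (0.12), the homeobox factor Zfhx3 (0.10), the RNA-binding protein Rbms3 (0.08) and Agbl1 (0.07). None of these 6 passed the test, and Agbl1, Rbms3 and Zfhx3 were below 0 without wild type replicate 1 (-0.03, -0.02 and -0.07). The median SE of a member was 0.0947, and for 67 of the 85 the 95% interval of the log2 fold change lay within 0.5 of 0.

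**Figure D3:**
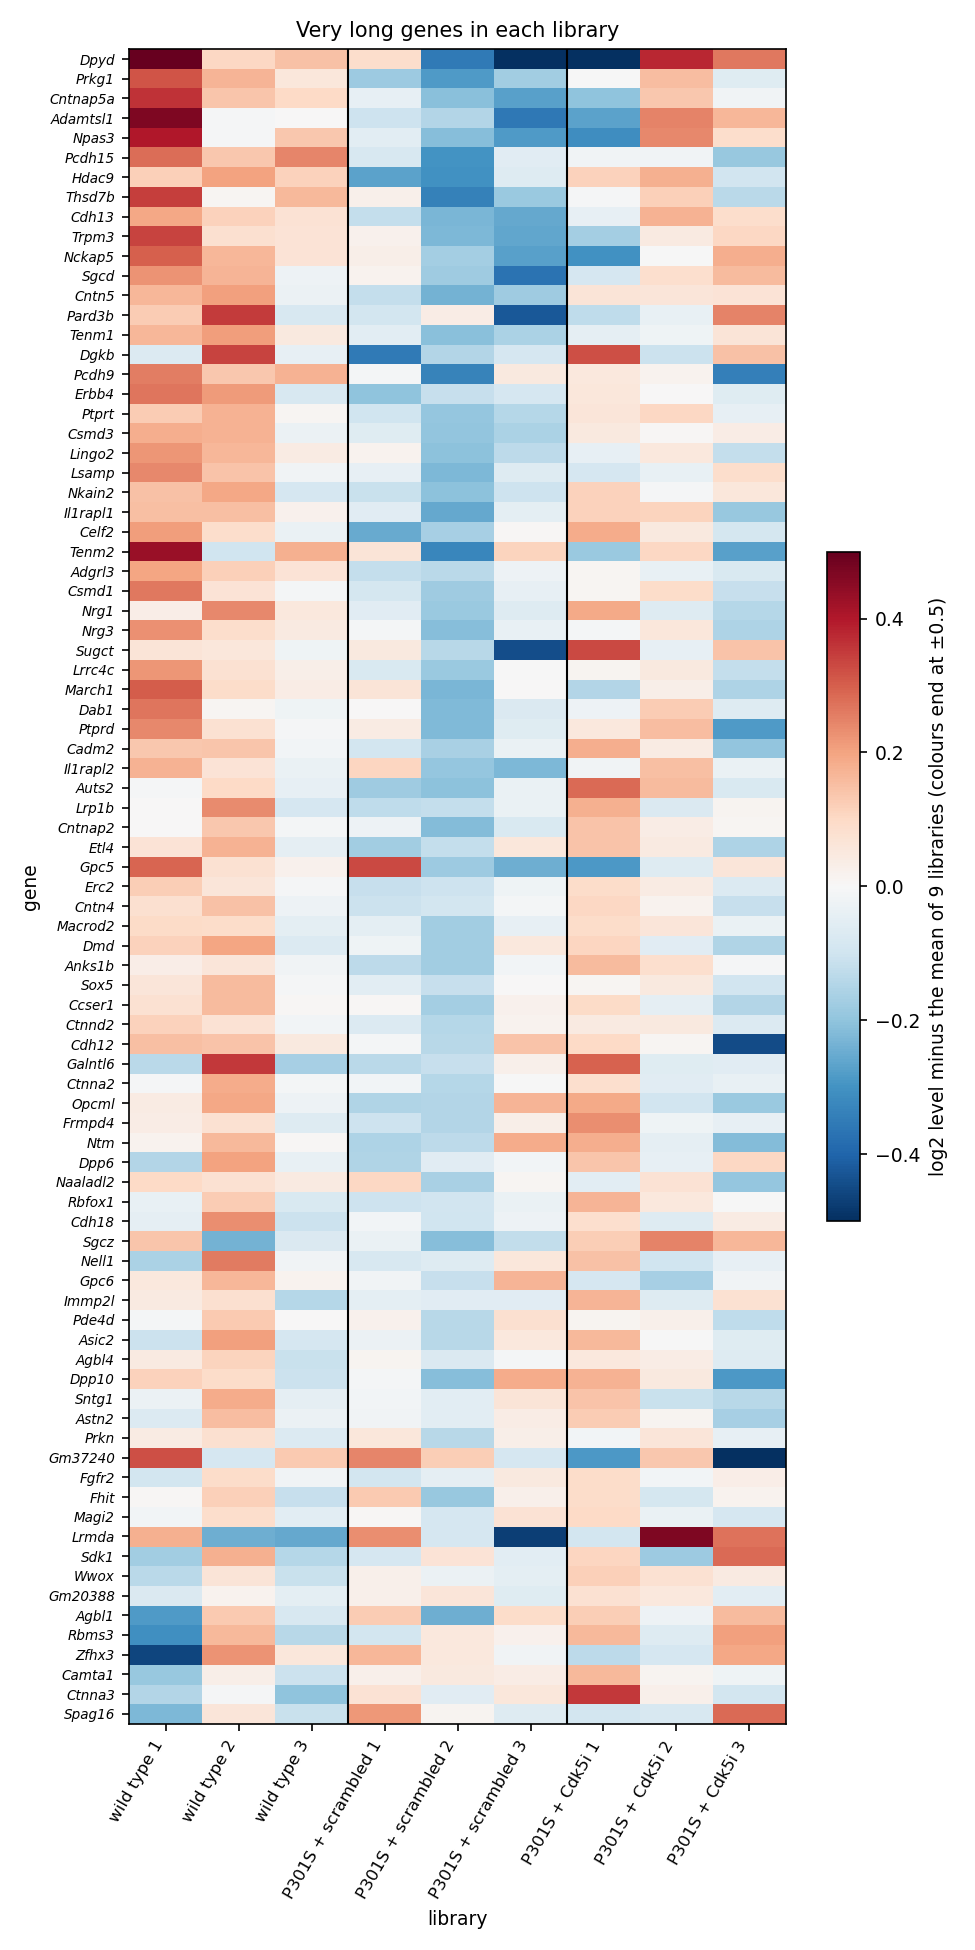
Log2 level of each member in each library minus its mean over the 9 libraries, with members ordered by their log2 fold change in scrambled peptide relative to wild type (lowest at the top). Red is above and blue below the member's own mean; in the top rows, from Dpyd to Hdac9, most cells are red in wild type and blue under scrambled peptide (Dpyd in scrambled-peptide replicate 1 and Adamtsl1 and Npas3 in wild type replicate 2 are exceptions), and wild type replicate 1 holds the strongest red cells.

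Between the peptides most members had values above 0, again with none past the adjusted threshold. For Cdk5i relative to scrambled peptide, 0 of 85 members passed edgeR's adjusted p of 0.05, beside 2 of all genes (0.0125%), and the lowest adjusted p of a member was 0.636 (Cdh13). DESeq2 also called 0 members. An unadjusted p under 0.05 was found for 11 members (12.9%), all higher, beside 5.33% of all genes. The log2 fold change was above 0 in 72 members (84.7%) beside 47.2% of all genes, with a median of 0.10 against -0.0095. In 14 members (16.5%) the Cdk5i libraries lay wholly above the scrambled-peptide libraries, beside 4.95% of all genes, and in 0 wholly below. This comparison and the one above share the scrambled-peptide libraries, so a low value there moves both in opposite directions.

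Without Cdk5i replicate 1 the members' median was 0.054 instead of 0.10. Between replicates of these groups the members' median position varied by an SD of 0.0684 (log2). Removing the length trend left 33 members above 0 and a median of -0.019. Summed inhibitory neuron markers were 1374 to 1553 CPM under Cdk5i, above each scrambled-peptide library. Of the 12 single inhibitory markers 8 were above 0 and 4 below, with a median log2 fold change of 0.03. Sums of striatal projection neuron markers were 3435 to 4652 CPM against 2441 to 3447 CPM, with slight overlap, and 12 of 14 were above 0. Of 12 excitatory markers 8 were below 0 (median -0.09), and of 9 oligodendrocyte markers 7 were (median -0.29). The part of all these markers in the members' values was not tested.

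The highest members in this comparison were Dpyd (0.36), Dgkb (0.32), Sugct (0.32), Lrmda (0.32), Sgcz (0.30) and Hdac9 (0.28), none past the test. Sgcz, a sarcoglycan of the dystrophin complex (chr8:37522298-38661508), had 2683, 2367 and 2519 CPM under scrambled peptide and 2989, 3253 and 3073 CPM under Cdk5i. Wild type was wide, at 3019, 2330 and 2608 CPM, and the Cdk5i libraries lay wholly above scrambled peptide at an edgeR adjusted p of 0.777. Dgkb, a diacylglycerol kinase, stood at 505, 582 and 610 CPM under scrambled peptide and 806, 598 and 715 CPM under Cdk5i, where the ranges overlapped. Auts2, a neurodevelopmental gene of chromatin regulation, had 1898, 1861 and 2097 CPM under scrambled peptide and 2608, 2394 and 2037 CPM under Cdk5i (0.27, SE 0.0959, edgeR adjusted p = 0.852). The lowest were Gm37240 (-0.29), Gpc6 (-0.11), Cdh12 (-0.10), Gpc5 (-0.08), Tenm2 (-0.07) and Zfhx3 (-0.07). Of these Cdh12, Gpc5 and Tenm2 changed sign when single libraries were left out.

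For Cdk5i relative to untreated wild type, which shares libraries with both comparisons above, most members lay slightly below 0. No member passed edgeR's threshold (0 of 85, beside 0.0748% of all genes) or DESeq2's, and the lowest adjusted p was that of Pcdh15 (0.248). An unadjusted p under 0.05 was found for 6 members (7.06%), 5 lower and 1 higher, beside 11.0% of all genes. The log2 fold change was below 0 in 61 members (71.8%) beside 51.2% of all genes, with a median of -0.06. Without wild type replicate 2 the number above 0 went from 24 to 37 and the median to -0.03, without Cdk5i replicate 3 to 39 and -0.01, and without wild type replicate 3 the median was -0.11. The Cdk5i libraries lay wholly below wild type in 5 members (5.88%), beside 8.22% of all genes. These 5 were Pcdh15, Gpc6, Pcdh9, the ubiquitin ligase March1 and the latrophilin Adgrl3. All 14 markers of striatal projection neurons were above 0 in this comparison (median 0.43), with sums of 3435 to 4652 CPM against 2417 to 3762 CPM in wild type, and their part in the members' values was not tested.

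Pcdh9 had 5064, 4653 and 4775 CPM in wild type, 4214, 3363 and 4390 CPM under scrambled peptide and 4392, 4289 and 3346 CPM under Cdk5i. Each transgenic library of Pcdh9 was thus below each wild-type library, at -0.28 (SE 0.121) and -0.27 (SE 0.121), with edgeR adjusted p of 0.465 and 0.44. Adgrl3 showed the same order, with 1846, 1750 and 1686 CPM in wild type, 1481, 1466 and 1581 CPM under scrambled peptide and 1620, 1570 and 1526 CPM under Cdk5i. Its partner Tenm2 was at 5112, 3545 and 4288 CPM in wild type, and 3334, 4076 and 3142 CPM under Cdk5i, at -0.29 (SE 0.156). Wild type replicate 1 was far above the other wild-type libraries for Tenm2, and the groups overlapped. The lowest log2 fold changes in this comparison were those of Gm37240 (-0.33), Tenm2, Pcdh15, Pcdh9, Dpyd (-0.25) and March1 (-0.24), and the highest those of Lrmda (0.33), Sgcz (0.23), Ctnna3 (0.22), Rbms3 (0.19), Agbl1 (0.16) and Camta1 (0.14).

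Set against gene length, the members stood near one end of a gradient over all genes. For scrambled peptide relative to wild type the median log2 fold change was 0.04 in 3899 genes under 10 kb, 0.03 at 10 to 25 kb, 0.01 at 25 to 50 kb, -0.0036 at 50 to 100 kb, -0.02 at 100 to 200 kb, -0.07 at 200 to 400 kb, -0.10 in 277 genes of 400 to 800 kb and -0.14 in the 85 members. The 12 genes of 800 kb and over left out by symbol had -0.20. For Cdk5i relative to scrambled peptide the same classes ran from -0.08 in genes under 10 kb through 0.01 at 50 to 100 kb to 0.09 at 400 to 800 kb, 0.10 in the members and 0.13 in those left out. The steps between neighbouring classes were smaller than the quartile range within each class. For Cdk5i relative to wild type the medians went from -0.04 under 10 kb up to 0.02 at 100 to 200 kb and back to -0.02 at 400 to 800 kb, and those of the members (-0.06) and the genes left out (-0.05) were the lowest.

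**Figure D4:**
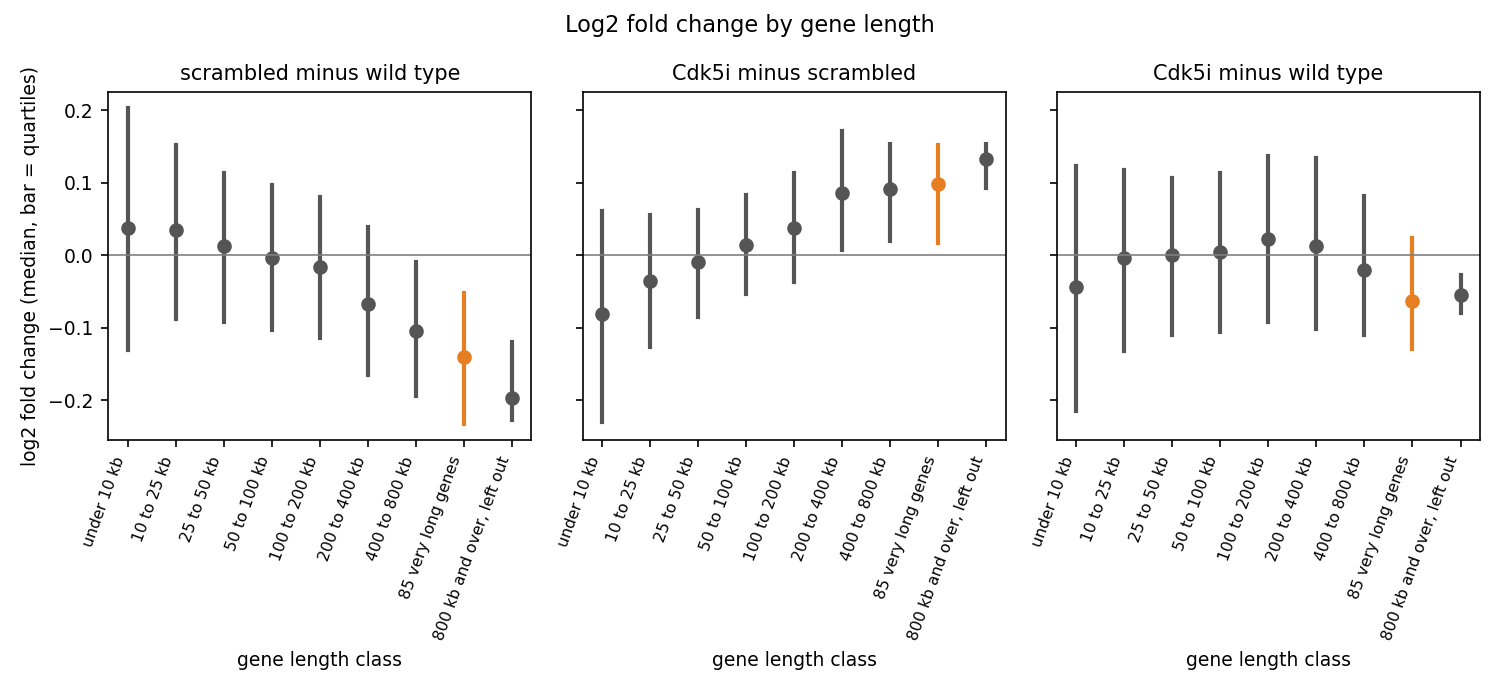
Median log2 fold change (points) and quartiles (bars) of all tested genes by gene length class, in the 3 comparisons; the 85 very long genes are in orange. In scrambled peptide relative to wild type the medians go from 0.04 under 10 kb to -0.14 in the members, and in Cdk5i relative to scrambled peptide from -0.08 to 0.10.

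Within the members the gradient did not continue. Pearson's r between log2 fold change and log2 length was 0.21 over the 85 members for scrambled peptide relative to wild type, where it was -0.13 over all 16046 genes. Between the peptides it was -0.21 in the members and 0.22 in all genes. Without the 5 overlapped genes the values in the members were 0.11 and -0.17. Median log2 fold changes for scrambled peptide relative to wild type were -0.18 in 31 members of 800 to 1000 kb, -0.14 in 39 of 1000 to 1500 kb and -0.13 in 15 of 1500 kb and over. The correlations describe genes measured in the same 9 libraries, which are not independent.

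The position of the members in each library showed how uneven the groups were. The median member stood 0.11, 0.13 and -0.02 (log2) from its mean over the 9 libraries in wild type replicates 1, 2 and 3. In the scrambled-peptide group it stood at -0.04, -0.16 and -0.03, and in the Cdk5i group at 0.08, 0.03 and -0.04. Scrambled-peptide replicate 2 and wild type replicates 1 and 2 were the libraries farthest from 0, while wild type replicate 3, scrambled-peptide replicates 1 and 3 and Cdk5i replicate 3 stood close together, between -0.04 and -0.02. Genes under 10 kb stood at 0.14 in scrambled-peptide replicate 2, their highest value, and at -0.08 in Cdk5i replicate 1, their lowest. As a share of all counts the members took 14.3% ± 0.600 in wild type (SD, n = 3), 13.4% ± 0.453 in the scrambled-peptide group and 13.8% ± 0.371 in the Cdk5i group, and the ranges of the 3 groups overlapped. Counted without ribosomal and mitochondrial RNA, the share was 14.02% to 14.93% in wild type and 13.10% to 13.96% in the scrambled-peptide group. Those ranges came close without overlap, and the Cdk5i range (13.61% to 14.21%) overlapped both.

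**Figure D5:**
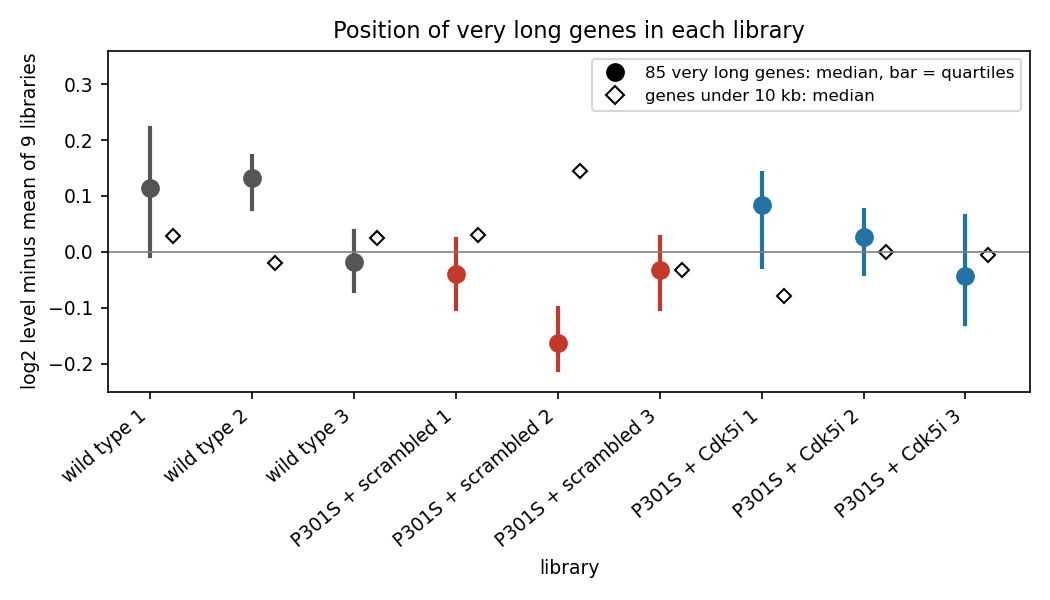
Median (circles) and quartiles (bars) of the 85 members' log2 level in each library minus their mean over the 9 libraries, with the median of genes under 10 kb as open diamonds. Wild type replicates 1 and 2 stand at 0.11 and 0.13, wild type replicate 3 at -0.02 and the scrambled-peptide libraries between -0.16 and -0.03.

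By role, the members were set beside shorter genes of the same lists, and in each of the 14 lists 0 genes passed edgeR's adjusted threshold in each comparison. Of the 308 shorter genes in the 13 lists that hold members, 61 (19.8%) had an unadjusted p under 0.05 for scrambled peptide relative to wild type (49 lower), beside 10.1% of all genes. Between the peptides 35 (11.4%) did (30 higher), beside 5.33%. Between Cdk5i and wild type 67 (21.8%) did, of which 27 were lower and 40 higher, beside 11.0%. The shorter genes were themselves long, with a median length per list of 107 to 549 kb. For scrambled peptide relative to wild type, all tested genes of 200 to 400 kb had a median of -0.07. Members of the immunoglobulin adhesion list had a median of -0.17 for scrambled peptide relative to wild type (9 of 10 below 0), and the 27 shorter genes of that list -0.12 (22 below 0). Among its most abundant members, Lsamp had -0.23 (SE 0.0952, edgeR adjusted p = 0.44), Cadm2 -0.18, Opcml -0.11 and Ntm -0.09. The 8 members of the list of contactin-associated proteins and teneurins had a median of -0.21 with 8 of 8 below 0. This list also holds Adgrl3, Lrrc4c, Dpp6 and Dpp10, and its 19 shorter genes had -0.10. Its 2 most abundant members, Dpp10 (-0.04, SE 0.129) and Tenm2 (-0.22, SE 0.156), had overlapping groups. Lrrc4c was at -0.20 (SE 0.0845) without overlap. Cntnap2, which clusters potassium channels along axons, had 2689, 2949 and 2668 CPM in wild type and 2636, 2314 and 2552 CPM in the scrambled-peptide group. These ranges came close without overlap (log2 fold change -0.15, edgeR adjusted p = 0.585). For cadherins and catenins the 8 members (-0.12) and 24 shorter genes (-0.09) stood close together.

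Lists differed in how far the shorter genes followed. The receptor tyrosine phosphatase and kinase list with its neuregulin ligands had 6 of 6 members below 0 (median -0.21), and its 18 shorter genes a median of -0.01 with 10 below 0. The ligands Nrg1 (-0.21) and Nrg3 (-0.20) and the phosphatases Ptprt (-0.25) and Ptprd (-0.18) were its most abundant members. Their receptor Erbb4, named here after its values were seen, had 1268, 1221 and 996 CPM in wild type, 915, 972 and 992 CPM under scrambled peptide and 1094, 1054 and 1010 CPM under Cdk5i. The scrambled-peptide libraries of Erbb4 were the lowest 3, by a narrow margin to wild type replicate 3 (log2 fold change -0.28, edgeR adjusted p = 0.33). Csmd1, Csmd3 and the lipoprotein receptor relative Lrp1b had a median of -0.21, against 0.05 in 18 shorter genes of their list. The difference between long and short members of a list was not tested.

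Members of the next lists had smaller or mixed values. The 22 members at common fragile sites, among them Macrod2, Lrp1b and Magi2, had a median of -0.13 with 19 below 0, and the 10 shorter fragile-site genes, whose median length was 549 kb, had -0.12. Many of the 22, among them Lrp1b, Magi2, Csmd1, Lsamp and Dmd, are also in other lists, so these lists are not separate groups of genes. Dmd was at -0.13 (SE 0.0947), with 1381, 1459 and 1214 CPM in wild type and 1254, 1129 and 1320 CPM under scrambled peptide, and the 4 members of its complex had a median of -0.10. Rbfox1 had 7680, 8610 and 7482 CPM in wild type, 7345, 7381 and 7716 CPM under scrambled peptide and 8873, 8184 and 7867 CPM under Cdk5i. Its scrambled-peptide and wild-type ranges overlapped (-0.08), and the Cdk5i libraries were above scrambled peptide (0.15, edgeR adjusted p = 0.945). Celf2 was at -0.23 (SE 0.104) and 0.19 in these comparisons, with overlap in both.

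The 3 members among channels and their partners (Asic2, Nkain2 and Trpm3) were all below 0, and their 22 shorter list genes had a median of -0.11. Their own median of -0.23 was the value of Nkain2, a partner of the sodium pump (SE 0.0859, edgeR adjusted p = 0.403). Asic2 was at -0.05 (SE 0.101, edgeR adjusted p = 0.909), and its groups overlapped. The kinase and phosphodiesterase members Prkg1, Dgkb, Frmpd4 and Pde4d had -0.18, and 39 shorter genes -0.08. The synaptic scaffolds Erc2, Anks1b and Magi2 had -0.13 and 27 shorter genes -0.11, and the 5 transcription and chromatin regulators had -0.15 against -0.06. For Cdk5i relative to scrambled peptide the medians of the members were above 0 in all of these lists except that of heparan sulfate and glycan genes (-0.08, with Gpc5, Gpc6 and Galntl6).

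Genes that act on transcription through long genes, none of which is a member, were read from a list of topoisomerases, elongation factors and RNA-binding proteins. Of 42 tested, 0 passed edgeR's adjusted threshold in each comparison. Before adjustment 4, 1 and 3 of them reached an edgeR p under 0.05 in the 3 comparisons as ordered above (9.52%, 2.38% and 7.14%). Over all genes the shares were 10.1%, 5.33% and 11.0%. Counts this small do not set the list apart from all genes. Their median log2 fold change was 0.0071 for scrambled peptide relative to wild type and -0.02 for Cdk5i relative to scrambled peptide. The 4 most abundant were Hnrnpu (-0.08 in scrambled peptide relative to wild type), Sfpq (-0.19), Dnmt3a (0.15) and Aff2 (-0.09). Hnrnpu and Sfpq bind nascent RNA, Dnmt3a is a DNA methyltransferase, and Aff2 belongs to the AFF family of elongation scaffolds. None of these 4 differed between groups past the adjusted threshold.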

How the data were processed

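RNA of sorted NeuN-positive nuclei was extracted with a kit for fixed tissue and made into stranded total RNA libraries read as paired ends of 40 bases, per the labels. The authors deposited raw counts per gene: per the file headers, featureCounts 2.0.0 counted read pairs over whole genes on the reverse strand, with the Ensembl release 102 annotation of GRCm38. The submitters' processing notes name DESeq2 1.36.0, STAR 2.7.9a and Subread 2.0.0. A read pair on several same-strand genes is not counted, and whole-gene counting includes introns.

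Groups came from the labels. edgeR 4.0.16 (TMM factors, low-count filter by group with a minimum count of 10, robust quasi-likelihood fit of the 9 libraries with 3 group means, Benjamini-Hochberg adjustment over 16046 genes) gave log2 fold changes, SEs and p-values, and was tested on simulated data. CPM values are scaled by the TMM factors. DESeq2 1.42.0 and limma 3.58.1 in R 4.3.3, other scalings, filters and left-out libraries were alternatives. Sequences are RefSeq's, and biotypes are from GENCODE M21, where 81 of 85 members had the same coordinates. Replicate numbers were not used as pairs, since same-numbered libraries of different groups correlated at -0.31 to 0.17 in their deviations from group means.

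The members, role lists and tests were chosen with earlier results of these data known. Named members were the 8 highest and 4 lowest by level, the 5 longest, the 6 highest and 6 lowest fold changes per comparison, up to 4 most abundant per role list and 4 family pairs. Cdh13, Cntn5, Tenm1, Erbb4 and Adgrl3 and the members just inside and outside the threshold were named in addition, after their values were seen.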

Additional observations from a re-analysis of the deposited data

How the results depend on the processing

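The counts of members called depended on the test and the low-count filter. For scrambled peptide relative to wild type, DESeq2 called 7 of 85 members, beside 0.529% of the genes it tested. Without a low-count filter edgeR called 14 of 85 members in that comparison. It called 5 for Cdk5i relative to scrambled peptide and 2 for Cdk5i relative to wild type. The counts over all genes are given below, and the cause was not tested. Every other alternative called 0 members, including limma-voom, DESeq2 size factors, TMM factors from genes under 100 kb, a filter of 50 counts in 3 libraries and each left-out library. With the length trend removed, 45 members (median 0.0081) for scrambled peptide relative to wild type and 33 (median -0.019) for Cdk5i relative to scrambled peptide were above 0.

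Leaving out 1 library at a time gave 8 to 20 members above 0 for scrambled peptide relative to wild type and 19 to 39 for Cdk5i relative to wild type. Over all genes, DESeq2 called 75, 26 and 115 genes in the 3 comparisons, the first of 14177 genes tested. Without a filter edgeR called 318, 159 and 408 of the 32394 genes with a count in some library. The replicate block called 0 members and 2, 2 and 2 genes, against 13, 2 and 12, and moved the members' medians to -0.1389, 0.0969 and -0.0635; the numbers do not pair the libraries. The share of counts in genes past a threshold of 600 kb was 18.5%, 17.6% and 18.1% in wild type, scrambled peptide and Cdk5i, and past 1000 kb 10.6%, 10.03% and 10.3%.

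With 1 library left out, the log2 fold change for scrambled peptide relative to wild type ran from -0.025 to 0.1824 for Agbl1, -0.0246 to 0.2152 for Rbms3 and -0.0735 to 0.2471 for Zfhx3. For Cdk5i relative to scrambled peptide it ran from -0.2036 to 0.0585 for Cdh12, -0.1818 to 0.1289 for Gpc5 (0.0079 without Cdk5i replicate 1) and -0.1892 to 0.0155 for Tenm2 (0.0111 without Cdk5i replicate 3).

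With 3 libraries a group and a median SE of 0.0947, differences of the size of the members' medians are below what a single gene can show.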
